A study of Mus musculus with 2 samples.

Results

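The glycine receptor subunits Glra1, Glra2, Glra3, Glra4 and Glrb and their synaptic anchor gephyrin (Gphn) were followed as 6 named genes among the 19575 genes of a single-nucleus RNA count matrix from mouse dorsal spinal cord. They were chosen by name, and all 6 were in the matrix. The nuclei came from mice of the genotype Pdyn-IRES-Cre(+/-); R26-LSL-Sun1.eGFP(+/-), in which cells with a history of prodynorphin (Pdyn) transcription carry a green nuclear envelope. Green nuclei were sorted from the lumbar (L3-L5) dorsal cord, so every nucleus should be of this lineage, whether or not it still transcribed Pdyn. The injured library pooled 8 adult mice of either sex that had received an incision of the left plantar hindpaw on postnatal day 3. The naive library pooled 8 adult littermates of either sex that had only been exposed to isoflurane on postnatal day 3. With 1 pooled library per treatment, injured and naive values can be set side by side but not tested, and mice within a pool cannot be told apart.

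Glycine receptors are chloride channels built from alpha subunits, which bind glycine, and the beta subunit, which ties the channel to gephyrin under the membrane of inhibitory synapses. Gephyrin also holds many GABA-A receptors at the synapse, and in every cell it catalyses the last steps of molybdenum cofactor synthesis. In the spinal cord, channels with the alpha1 subunit (Glra1) carry most adult glycine transmission, alpha2 (Glra2) is best known from fetal and newborn tissue, and alpha3 (Glra3) is concentrated in the superficial dorsal horn, where prostaglandin E2 acts on it through protein kinase A.

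On build mm10 (GRCm38, GENCODE M21 annotation) all 6 members are protein-coding genes. Glra1 lies at chr11:55514238-55608198 on the minus strand, Glra2 at chrX:165129017-165327393 on the minus strand and Glra3 at chr8:55940460-56130070 on the plus strand. Glra4, a pseudogene in humans, lies at chrX:136757674-136780141 on the minus strand. Glrb lies at chr3:80843599-80913660 on the minus strand and Gphn at chr12:78226379-78684772 on the plus strand. The genes span 22.5 kb (Glra4) to 458 kb (Gphn). The 4 alpha genes were 74.1% to 76.1% identical over their aligned coding bases, and the beta gene was 62.0% to 65.5% identical to them. By the same alignment Gphn, which encodes no receptor subunit, was 64.6% to 66.1% identical to the alpha genes. The values of Glrb were thus not above those of a gene outside the family. The coding stretch of 60 bases that was most alike in all 5 subunit genes is shown because it marks how alike their coding sequences are at the closest. It does not show whether the counted reads could be told apart. It belongs to the part that encodes the first membrane-spanning segment, begins at coding base 766 of Glra1, and has in capitals the bases unlike Glra1, which number 8 in Glra2, 8 in Glra3, 2 in Glra4 and 18 in Glrb.
Glra1: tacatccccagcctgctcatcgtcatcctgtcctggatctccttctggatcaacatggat
Glra2: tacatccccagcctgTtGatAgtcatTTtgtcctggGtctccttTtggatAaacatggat
Glra3: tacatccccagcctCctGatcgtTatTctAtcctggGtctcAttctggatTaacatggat
Glra4: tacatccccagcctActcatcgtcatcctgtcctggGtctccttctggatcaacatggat
Glrb: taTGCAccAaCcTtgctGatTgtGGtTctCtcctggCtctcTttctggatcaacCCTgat
The longest coding stretch shared letter for letter by 2 alpha genes had 26 bases, and between an alpha gene and Glrb it had 14 bases. An antisense gene, Gm12236, which spans 12.9 kb, overlaps Glra1 on the opposite strand. Whether counting used strand is not given in the sources used here, so the values of Gm12236 are set beside those of Glra1 where a result turns on it.

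The injured library held 3547 nuclei with 32934588 UMIs (unique molecular identifiers, each a counted RNA molecule) and a median of 8464 per nucleus. The naive library held 4063 nuclei with 30602222 UMIs and a median of 6955 per nucleus. A nucleus was called inhibitory when it had at least 3 UMIs of the transmitter genes Gad1, Gad2, Slc32a1, Slc6a5 and Slc17a6 and at least 80% of them came from the first 4 genes, and excitatory when at least 80% came from Slc17a6. This gave 1543 injured and 1646 naive inhibitory nuclei, and 321 injured and 290 naive excitatory nuclei. A further 99 injured and 126 naive nuclei held both kinds, and 1584 injured and 2001 naive nuclei had too few transmitter UMIs. Of the inhibitory nuclei, 396 injured and 524 naive ones had exactly 3 transmitter UMIs, as had 129 injured and 137 naive excitatory nuclei. Pax2, an inhibitory lineage factor outside the gate, stood at 207 and 206 CPM (UMIs scaled to 1000000 per class and library) in injured and naive inhibitory nuclei, against 2.54 and 3.04 CPM in injured and naive excitatory nuclei. Tlx3, an excitatory lineage factor, stood at 0.606 and 0.693 CPM in injured and naive inhibitory nuclei, against 9.67 and 13.8 CPM in injured and naive excitatory nuclei. It was the lowest of the 4 excitatory markers used to name clusters, which include Slc17a6 of the gate. Together these markers summed to 105 and 129 CPM in injured and naive inhibitory nuclei, against 547 and 572 CPM in injured and naive excitatory nuclei. The whole list thus set the classes less far apart than Tlx3 alone. Oligodendrocyte markers summed to 135 and 83.3 CPM in injured and naive inhibitory nuclei and to 124 and 103 CPM in injured and naive excitatory nuclei, with all 6 markers detected in each. The libraries shared 3 barcode sequences.

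Inhibitory nuclei carried more Glra1, and excitatory nuclei carried more Glra2, Glrb and Gphn. Glra1 stood at 195 CPM in injured and 169 CPM in naive inhibitory nuclei, against 131 CPM in injured and 102 CPM in naive excitatory nuclei. Glra2 had the opposite order, with 52.6 CPM in injured and 45.1 CPM in naive inhibitory nuclei, against 146 CPM in injured and 144 CPM in naive excitatory nuclei. For both genes, both inhibitory values lay on the same side of both excitatory values.

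**Figure D1:**
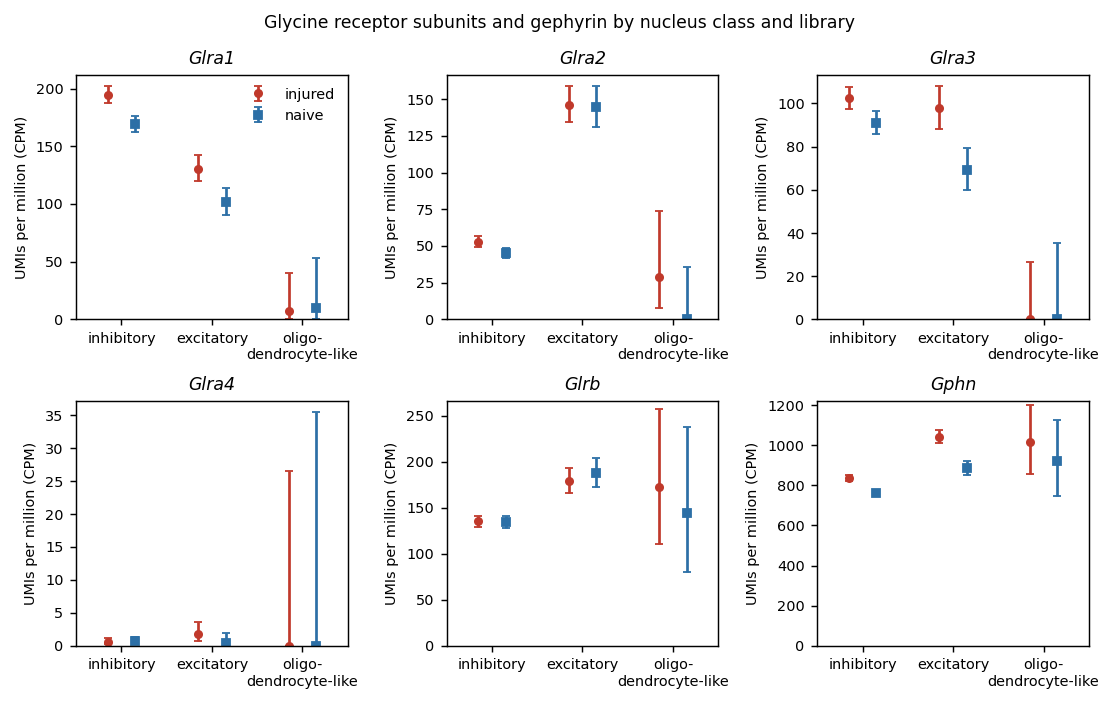
Summed level (CPM, vertical axes from 0) of the 6 members in inhibitory, excitatory and oligodendrocyte-like nuclei, injured library as red circles and naive library as blue squares, with exact 95% Poisson intervals that cover counting error only. Glra1 is higher in inhibitory nuclei, Glra2 is higher in excitatory nuclei, Glra4 is near 0 in both, and Glrb and Gphn are as high in oligodendrocyte-like nuclei as in neurons.

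Glra3 stood at 103 CPM in injured and 91.0 CPM in naive inhibitory nuclei, against 97.7 CPM in injured and 69.2 CPM in naive excitatory nuclei, and here the injured excitatory value fell between the 2 inhibitory ones. Glrb, the beta subunit, stood at 135 CPM in injured and 134 CPM in naive inhibitory nuclei, against 179 CPM in injured and 188 CPM in naive excitatory nuclei. Gphn was the most counted member, with 837 CPM in injured and 761 CPM in naive inhibitory nuclei, against 1042 CPM in injured and 887 CPM in naive excitatory nuclei. Glra4 had 9 UMIs in injured and 9 in naive inhibitory nuclei (0.606 and 0.693 CPM), and 7 in injured and 1 in naive excitatory nuclei (1.78 and 0.338 CPM). It did not pass the filter on low counts of the class tests, and its 95% intervals ran from 0.277 to 1.15 CPM in injured and from 0.317 to 1.32 CPM in naive inhibitory nuclei.

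The difference between the classes was tested over the summed counts of both classes in both libraries, with the library as a block (edgeR quasi-likelihood test, 15023 genes tested, 1 residual degree of freedom). The libraries differ in treatment and stand here as 2 repeats of the class difference. The p-values rest on how alike that difference was in the 2 pools, on count size and on a spread moderated over all tested genes. They do not cover variation between mice. Glra1 was higher in inhibitory nuclei by 0.65 on the log2 scale (SE 0.07, edgeR adjusted p = 7.7e-17). Glra2 was lower in inhibitory nuclei, at -1.56 (SE 0.07, edgeR adjusted p = 4.3e-52). Both encode subunits that bind glycine.

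Glrb was lower in inhibitory nuclei, at -0.44 (SE 0.06, edgeR adjusted p = 7.1e-10), and so was Gphn, at -0.27 (SE 0.05, edgeR adjusted p = 4.9e-06). Glra3 was higher in inhibitory nuclei by 0.21 (SE 0.08, edgeR adjusted p = 0.031). So 2 members were higher and 3 lower in inhibitory nuclei, while 12.2% of all tested genes were called higher and 14.3% lower (26.4% in either direction). The Glra3 call was lost with DESeq2 (0.23, adjusted p = 0.69) and its sign turned when classes came from clustering (-0.06). The difference for Gphn was -0.31 in the injured and -0.21 in the naive library, and without the library block it did not pass (edgeR adjusted p = 0.27). Glra4 was at -0.77 without the filter on low counts (SE 0.79, edgeR adjusted p = 0.62) and at -0.52 with classes from clustering (SE 0.47, edgeR adjusted p = 0.43), so no difference was detectable for it. Gm12236, antisense to Glra1, differed like Glra1, by 0.73 (SE 0.09, edgeR adjusted p = 3.1e-13).

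**Figure D2:**
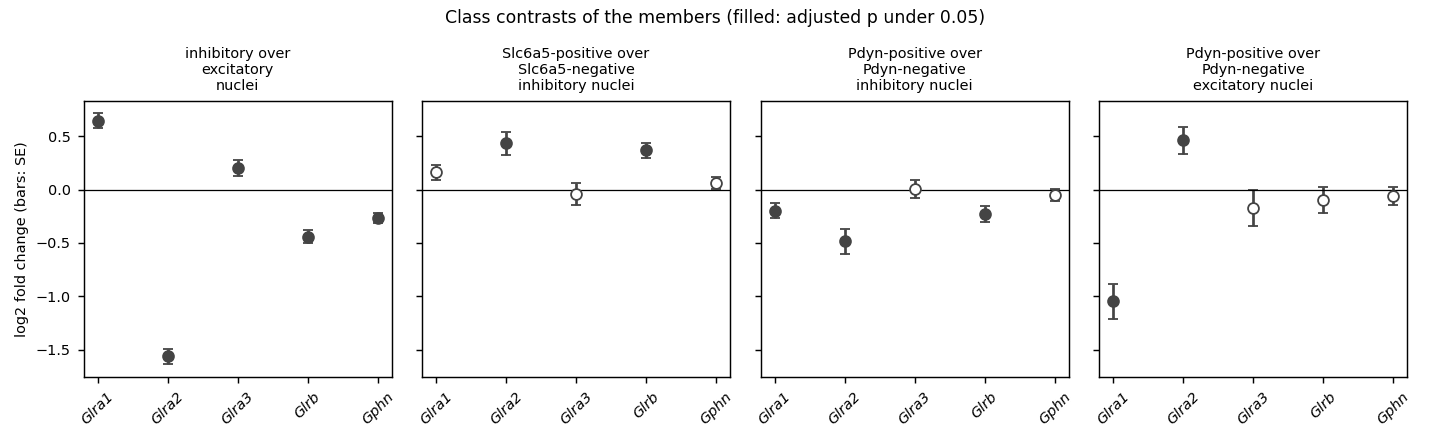
Log2 fold change (vertical axis, bars are SE) of 5 members in 4 class contrasts, each over 4 library sums, with filled points where the edgeR adjusted p is under 0.05. Glra1 and Glra2 lie on opposite sides of 0 in the inhibitory over excitatory contrast (0.65 and -1.56) and in the contrast of Pdyn within excitatory nuclei (-1.05 and 0.46).

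In terms of nuclei rather than molecules, Glra1 had at least 1 UMI in 72.1% of injured and 62.0% of naive inhibitory nuclei, against 54.8% of injured and 46.9% of naive excitatory nuclei. Excitatory nuclei were deeper (medians of 11359 UMIs in injured and 9429.5 in naive ones) than inhibitory nuclei (8616 in injured and 7195.5 in naive ones). With each nucleus thinned to 3000 UMIs, the Glra1 shares were 39.8% of injured and 35.8% of naive inhibitory nuclei, against 24.9% of injured and 19.3% of naive excitatory nuclei. For Glra2 the thinned shares were 12.4% of injured and 10.6% of naive inhibitory nuclei, against 39.3% of injured and 35.5% of naive excitatory nuclei, where the unthinned shares were 29.0% and 24.2%, against 70.1% and 65.5%. For Glra3 they were 24.1% of injured and 21.96% of naive inhibitory nuclei, against 22.7% of injured and 16.2% of naive excitatory nuclei, where the unthinned shares were 50.1% and 39.6%, against 52.3% and 40.3%.

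Oligodendrocyte-like nuclei, which should lack the alpha subunits, gave the background of free RNA. Glra1 had a UMI in 2.22% of the 45 injured and 2.38% of the 42 naive ones, Glra2 in 6.67% of injured and in none of the naive ones, and Glra3 in none. A count of 0 allows up to 3 counts, which is 21.6 CPM in injured and 28.8 CPM in naive ones, and the exact 95% limits drawn in the plot of levels by class are 26.6 CPM and 35.4 CPM. These nuclei were shallow, with medians of 2593 UMIs in injured and 2146.5 in naive ones. As a level, Glra1 was at 7.21 CPM in injured and 9.61 CPM in naive oligodendrocyte-like nuclei, well under both neuron classes. Glra2 was at 28.9 CPM in injured ones, from 4 UMIs, with an interval of 7.86 to 73.9 CPM that included its level in injured inhibitory nuclei, so the inhibitory Glra2 level could not be told from background in that library by this measure. In naive ones Glra2 was at 0. Injured nuclei with the markers of neurons in contact with the cerebrospinal fluid had 1 Glra2 UMI, at 3.14 CPM (0.0795 to 17.5). That interval lay under the one of injured inhibitory nuclei, 49.0 to 56.5 CPM. Glrb and Gphn were not neuron-specific when set against oligodendrocyte-like nuclei. Glrb stood at 173 CPM in injured and 144 CPM in naive oligodendrocyte-like nuclei, and Gphn at 1017 CPM in injured and 922 CPM in naive ones.

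To ask whether alpha and beta transcripts were found together, nuclei thinned to 3000 UMIs were scored for any alpha UMI and any Glrb UMI. An alpha UMI was found in 60.1% of injured and 55.3% of naive inhibitory nuclei, and in 65.1% of injured and 59.0% of naive excitatory nuclei. Glrb was found in 34.5% of alpha-positive injured inhibitory nuclei, against 28.5% of alpha-negative ones. In naive inhibitory nuclei it was found in 31.2% of alpha-positive nuclei, against 33.1% of alpha-negative ones, the opposite order. In excitatory nuclei the shares were 42.6% of alpha-positive and 33.0% of alpha-negative nuclei in the injured library, and 44.4% of alpha-positive and 39.5% of alpha-negative nuclei in the naive library. Glrb was thus more often found with an alpha subunit in 3 of the 4 sets of nuclei, a description at low depth. A Gphn UMI was found in 89.7% to 93.8% of thinned nuclei of either class.

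Levels of different genes were compared per kilobase of gene span, which presumes that intronic reads were counted. The sources used here do not say whether they were, so the order of the genes holds only under that condition, and by CPM alone Gphn was far highest. In inhibitory nuclei Glra1 had 2.07 CPM per kb in the injured and 1.80 in the naive library, Glrb 1.93 and 1.92, and Gphn 1.83 and 1.66. Glrb and Glra1 each lay above Gphn in both libraries. Glra1 was above Glrb in the injured and below it in the naive library, so the order of Glra1 and Glrb could not be given. Glra3 followed with 0.541 CPM per kb in injured and 0.480 in naive inhibitory nuclei, then Glra2 with 0.265 and 0.227, then Glra4 with 0.0270 and 0.0309. In excitatory nuclei Glrb came first, with 2.56 CPM per kb in the injured and 2.68 in the naive library, before Gphn with 2.27 and 1.93 and Glra1 with 1.39 and 1.08. Glra2 had 0.738 and 0.728 CPM per kb there, and Glra3 had 0.515 and 0.365. Glra1 and Glrb thus stood side by side in inhibitory nuclei, while in excitatory nuclei Glrb exceeded each alpha subunit on the scale of CPM per kb.

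The genes around these receptors were read from 8 lists. Of the 18 GABA-A receptor subunits in the matrix, 12 could be tested between classes, of which 2 were higher and 8 lower in inhibitory nuclei, with a median log2 fold change of -0.47 against 0.00 over all tested genes. The gamma1 subunit gene Gabrg1 stood at 86.4 CPM in injured and 90.8 CPM in naive inhibitory nuclei, against 17.3 CPM in injured and 18.9 CPM in naive excitatory nuclei (log2 fold change 2.30, SE 0.11, edgeR adjusted p = 2.3e-49). Gabra2, an alpha subunit of synaptic GABA-A receptors, was higher by 0.99 (SE 0.06, edgeR adjusted p = 2.8e-35). Gabra4 was lower, at -1.53 (SE 0.12, edgeR adjusted p = 1.9e-26), and Gabrb1 at -1.10 (SE 0.05, edgeR adjusted p = 9.8e-50). The direction of Gphn was thus that of most tested GABA-A subunits.

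Of the 11 measured scaffold and adhesion genes of inhibitory synapses, 1 was higher and 5 were lower in inhibitory nuclei, with a median of -0.08. Mdga2, a cell surface protein that binds neuroligins and limits synapse formation, was higher by 1.23 (SE 0.05, edgeR adjusted p = 6.2e-62), while its relative Mdga1 was lower, at -3.19 (SE 0.18, edgeR adjusted p = 1.8e-40). Mdga1 was rare in inhibitory nuclei, with 3.23 CPM in injured and 3.78 CPM in naive ones, against 29.8 CPM in injured and 34.8 CPM in naive excitatory nuclei. Of 20 transport and binding partners of the receptor and gephyrin, 1 was higher (Pclo, a presynaptic scaffold, 0.30) and 2 were lower, among them the kinesin Kif5c (-0.30). Of 6 tested genes of molybdenum cofactor synthesis and its enzymes, none was higher and 1 was lower, and of 7 tested genes of glycine transport and metabolism, 1 was higher (Gcsh, of the glycine cleavage system, 0.57). Of 6 chloride transporters and channels, 2 were higher and 1 was lower. The list of the prostaglandin E2 route onto Glra3 had 4 higher and 3 lower of 10 genes. The adenylyl cyclase Adcy8 was higher by 1.02, and the prostaglandin receptor gene Ptger4 was lower, at -0.72 (SE 0.14, edgeR adjusted p = 4.4e-06). Of 6 regulators known to splice Glra2 or Gphn, Rbfox1 was higher by 0.23 (SE 0.05, edgeR adjusted p = 3.5e-05) and Nova1 was lower, at -0.50 (SE 0.06, edgeR adjusted p = 3.3e-12).

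Within the neuron classes the alpha subunits divided further. Clustering both libraries together, without the members among the variable genes, gave 19 neuron clusters of at least 50 nuclei. In 12 of them the inhibitory transmitter genes exceeded Slc17a6, and in 7 Slc17a6 was the higher. Cluster levels are descriptions, since the same nuclei made the clusters. Each is given over both libraries unless a library is named.

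Glra1 was highest in the excitatory-like cluster 16, led by Skor2 and Rxfp1, with 332 CPM, and lowest in the excitatory-like cluster 10, led by Aldh1a2 and Myo5b, with 46.9 CPM, a range of 7.07-fold. In cluster 16 it stood at 369 CPM in the injured and 281 CPM in the naive library, and in cluster 10 at 47.6 CPM in the injured and 46.3 CPM in the naive library. Cluster 6, an inhibitory-like cluster led by Fbxl7 and Nxph2, followed with 303 CPM, and cluster 21, an unnamed cluster on the Slc17a6 side led by Megf11 and Tac1, with 298 CPM. In the naive library alone, cluster 6 with 291 CPM stood above cluster 16, and their intervals overlapped, so which of them was highest depended on the library. Cluster 10 on the excitatory side was lowest with both libraries summed. In the naive library alone, cluster 15 on the same side was lower, with 33.7 CPM, so the lowest cluster also depended on the library.

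Glra2 was highest in clusters 10 and 15, where Glra1 was lowest. Cluster 10 stood at 235 CPM in the injured and 219 CPM in the naive library, and the excitatory-like cluster 15, led by Esr1 and Myo5b, had 176 CPM of Glra2 and 47.1 CPM of Glra1. The lowest Glra2 level, 9.07 CPM, was in the cluster that carried the markers of neurons in contact with the cerebrospinal fluid (Pkd2l1, Pkd1l2 and Myo3b), with 1 UMI in 48 injured and 7 UMIs in 106 naive nuclei. From highest to lowest Glra2 spanned 24.99-fold. The inhibitory-like cluster 3, led by Nos1 and Pamr1, had the most Glra2 of the inhibitory side, at 90.6 CPM.

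Glra3 spanned 23.8-fold, with its peak of 324 CPM again in cluster 16, where it stood at 335 CPM in the injured and 310 CPM in the naive library. Its next level was 187 CPM in cluster 1, an unnamed cluster on the inhibitory side led by Atp10a and Acss1. The cluster of neurons in contact with the cerebrospinal fluid had the least Glra3, 13.6 CPM, from 6 injured and 6 naive UMIs. In that cluster Glra1, at 129 CPM, was far above Glra2 and Glra3, and 27.7% of its naive nuclei had a Glra1 UMI after thinning, against 1.98% with Glra2 and 0.990% with Glra3.

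**Figure D3:**
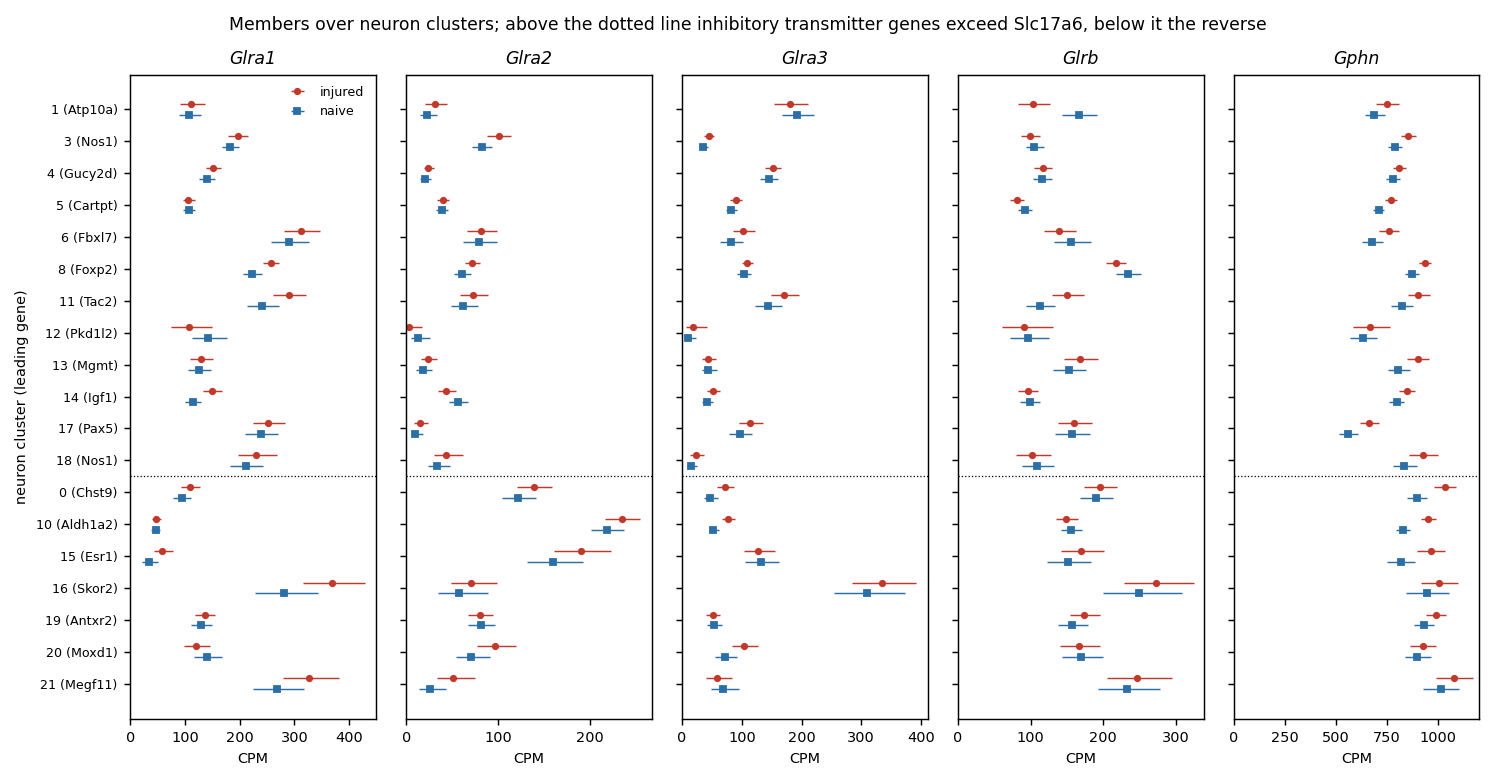
Level (CPM, horizontal axes from 0) of 5 members in 19 neuron clusters (rows, each with its leading gene), injured library as red circles and naive library as blue squares with exact 95% Poisson intervals. Over both libraries, cluster 16 (Skor2) is highest for Glra1, Glra3 and Glrb at 332, 324 and 263 CPM, cluster 10 (Aldh1a2) is highest for Glra2 at 227 CPM, and Gphn varies least.

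Glrb varied less, 3.03-fold, between cluster 16 at 263 CPM and cluster 5, an inhibitory-like cluster led by Cartpt and Pde11a, at 86.9 CPM. Gphn varied 1.70-fold, between cluster 21 at 1045 CPM and cluster 17, led by Pax5 and Cdh9, at 613 CPM. Glrb and Gphn were thus spread more evenly over the clusters than Glra1, Glra2 and Glra3. Glra4 stayed at or under 4.9 CPM in every cluster. Most neighbours in each order could not be told apart, since only 1 to 3 of 18 neighbouring pairs per gene had separate intervals, yet over the 19 clusters the 2 libraries gave like levels (Pearson r of 0.90 to 0.98 for the 5 common members, 0.11 for Glra4, with clusters of one joint clustering as points). Glra1 and Glra2 ran against each other weakly (r = -0.35), Glrb went with Gphn (r = 0.60), and Gphn went with Glra2 (r = 0.62).

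Among 7273 well counted genes, the one whose level over the 19 clusters was most like that of Glra1 was Smc5 (r = 0.81), a subunit of a chromosome maintenance complex. For Glra2 it was the cadherin Cdh18 (r = 0.81), for Glra3 the neurotrophin receptor gene Ntrk2 (r = 0.82), for Glrb the microtubule plus-end protein gene Clip1 (r = 0.91) and for Gphn Dbndd2 (r = 0.84). The cannabinoid receptor gene Cnr1 was the gene next most like Gphn (r = 0.84). These are the highest of many values over few points that share libraries and depth.

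The neuronal glycine transporter Slc6a5 fills terminals that release glycine, so inhibitory nuclei were split by it, with 547 injured and 529 naive nuclei at 2 or more Slc6a5 UMIs set against 529 injured and 626 naive nuclei at none. Slc6a5-positive nuclei carried more Glra2 and Glrb. Glra2 stood at 59.5 CPM in injured and 46.8 CPM in naive Slc6a5-positive nuclei, against 39.5 CPM in injured and 39.5 CPM in naive Slc6a5-negative nuclei (log2 fold change 0.44, SE 0.11, edgeR adjusted p = 0.0085). Glrb stood at 153 CPM in injured and 149 CPM in naive Slc6a5-positive nuclei, against 118 CPM in injured and 118 CPM in naive Slc6a5-negative nuclei (log2 fold change 0.37, SE 0.07, edgeR adjusted p = 0.0015). In each gene both positive values lay above both negative ones. The Glra2 difference was 0.59 in the injured library alone and 0.25 in the naive library alone. Slc6a5-positive nuclei were also deeper, with medians of 10156 UMIs in injured and 7936 in naive ones, against 7842 in injured and 6657 in naive Slc6a5-negative nuclei. With nuclei thinned to 3000 UMIs and gated again, the difference was 0.90 for Glra2 (edgeR adjusted p = 0.15) and 0.31 for Glrb (edgeR adjusted p = 0.55). Thinning also left fewer nuclei, so the part of depth alone was not tested.

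Those were 2 of 5 members called, both higher, where 20.5% of all 13621 tested genes were called, 11.4% higher and 9.07% lower. Glra1 did not pass, with 210 CPM in injured and 176 CPM in naive Slc6a5-positive nuclei, against 182 CPM in injured and 163 CPM in naive Slc6a5-negative nuclei (0.16, SE 0.07, edgeR adjusted p = 0.11). Gphn did not pass either (0.06, SE 0.06, edgeR adjusted p = 0.54). Glra3 went opposite ways in the libraries, with 95.9 CPM in positive and 116 CPM in negative injured nuclei, and 97.6 CPM in positive and 83.6 CPM in negative naive nuclei (-0.04, SE 0.10, edgeR adjusted p = 0.84). With DESeq2 neither Glra2 (adjusted p = 0.62) nor Glrb (adjusted p = 0.28) passed, without the library block Glra2 did not (edgeR adjusted p = 0.089), and under a stricter gate (at least 5 transmitter UMIs, 90% on one side) Glrb was at 0.21 (edgeR adjusted p = 0.23).

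The GABA-A subunits divided in the same split, with 4 higher and 2 lower of 11 tested (median 0.15). Gabra5, whose channels are largely extrasynaptic, was higher in Slc6a5-positive nuclei by 1.97 (SE 0.14, edgeR adjusted p = 6.0e-08), with 61.3 CPM in injured and 61.0 CPM in naive positive nuclei, against 19.2 CPM in injured and 12.1 CPM in naive negative nuclei. Gabra2 and Gabrg1 were each lower, at -0.54. Of the 11 scaffold genes, 3 were higher and 2 lower (median 0.22). Iqsec3, an exchange factor that binds gephyrin, was higher by 1.28 (SE 0.08, edgeR adjusted p = 1.8e-08). Fam196a, which encodes an inhibitory synapse protein, was higher by 1.36, and Mdga2 was lower, at -0.47. Among 20 transport and binding partners 4 were higher, Grip1 by 0.45 and Kif5a by 0.27 among them, and 1 was lower, the dynein light chain Dynll1 (-0.39), which binds gephyrin. The splicing regulator Nova1 was higher by 1.001 (SE 0.10, edgeR adjusted p = 3.4e-06). Of 4 tested molybdenum cofactor genes none passed, of 6 glycine transport and metabolism genes 1 was higher and 1 lower, of 6 chloride genes 1 was higher, and of 10 genes of the prostaglandin E2 route 2 were higher and 1 lower, with Adcy1 at 1.73.

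Nuclei with at least 1 Pdyn UMI were set against nuclei of the lineage without a Pdyn UMI. A single UMI can come from free RNA and a missing one from low depth, and neither was measured for Pdyn. Among inhibitory nuclei, 295 injured and 315 naive ones had a Pdyn UMI. Glra2 was lower in them, with 38.0 CPM in injured and 34.3 CPM in naive Pdyn-positive nuclei, against 56.0 CPM in injured and 47.6 CPM in naive Pdyn-negative nuclei (-0.49, SE 0.12, edgeR adjusted p = 0.0014). Glrb was lower too, with 114 CPM in injured and 119 CPM in naive Pdyn-positive nuclei, against 140 CPM in injured and 138 CPM in naive Pdyn-negative nuclei (-0.23, SE 0.08, edgeR adjusted p = 0.033).

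Glra1 was lower by a margin at the threshold, with 166 CPM in injured and 153 CPM in naive Pdyn-positive inhibitory nuclei, against 201 CPM in injured and 173 CPM in naive Pdyn-negative ones (-0.20, SE 0.07, edgeR adjusted p = 0.049). Those 3 lower members of 5 stand beside 7.72% of 14356 tested genes called lower, 6.19% called higher and 13.9% called in either direction. Glra3 (0.01, edgeR adjusted p = 0.98) and Gphn (-0.05, edgeR adjusted p = 0.65) did not pass. All 3 calls were lost with DESeq2 (adjusted p of 0.99996 for Glra1, 0.64 for Glra2 and 0.99996 for Glrb), without the library block and under the stricter gate.

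Among excitatory nuclei, where 72 injured and 85 naive ones had a Pdyn UMI, Glra1 and Glra2 moved in opposite directions. Glra1 stood at 73.8 CPM in injured and 53.8 CPM in naive Pdyn-positive nuclei, against 147 CPM in injured and 121 CPM in naive Pdyn-negative nuclei (-1.05, SE 0.16, edgeR adjusted p = 3.5e-08). Glra2 stood at 168 CPM in injured and 193 CPM in naive Pdyn-positive nuclei, against 140 CPM in injured and 125 CPM in naive Pdyn-negative nuclei (0.46, SE 0.13, edgeR adjusted p = 0.014). Both calls stand beside 3.17% of 10975 tested genes called in either direction, 1.45% higher and 1.72% lower. A test of whether the Pdyn difference itself differed between inhibitory and excitatory nuclei called 2 of 5 members, Glra1 (0.84) and Glra2 (-0.96), and 4.11% of 12939 genes. With DESeq2 Glra1 kept its fold change (-1.05) but not the call (adjusted p = 0.19), and Glra2 lost its call under the stricter gate (0.08, edgeR adjusted p = 0.99), without likely doublets (0.23, edgeR adjusted p = 0.75) and without the library block (edgeR adjusted p = 0.18). Its difference was 0.29 in the injured library alone and 0.65 in the naive library alone.

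Gm12236, antisense to Glra1, was also lower in Pdyn-positive excitatory nuclei, at -0.89 (SE 0.23, edgeR adjusted p = 0.0050). Glra3 again differed between the libraries, with 64.6 CPM in positive and 107 CPM in negative injured excitatory nuclei, and 84.2 CPM in positive and 63.1 CPM in negative naive ones (-0.17, SE 0.17, edgeR adjusted p = 0.81). Glrb (-0.09) and Gphn (-0.06) did not pass, both at an edgeR adjusted p of 0.89. Of 11 tested GABA-A subunits, none was higher and 2 were lower in Pdyn-positive excitatory nuclei, Gabra5 at -0.85 and Gabrb2 at -0.70. Grip1, an adaptor of receptor transport, was lower at -0.33, and Nova1 at -0.41, each the single gene called in its list, and none of 11 scaffold, 3 molybdenum cofactor, 3 glycine, 4 chloride and 9 prostaglandin E2 route genes passed.

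In Pdyn-positive inhibitory nuclei 2 of 11 GABA-A subunits were higher, Gabra2 by 0.39 and Gabrg1 by 0.69, and 5 were lower, Gabra5 at -1.04 and Gabra4 at -0.80 among them. Of 11 scaffold genes 1 was higher (Mdga2, 0.37) and 2 were lower, Fam196a at -1.50 and Iqsec3 at -0.61. The 20 transport partners had 2 lower members, Grip1 at -0.44 and Pacsin1 at -0.27. The splicing regulators had Ptbp2 higher by 0.28 and Nova1 lower at -0.73, the prostaglandin E2 route had Prkar2b higher by 0.25 and Adcy1 lower at -1.27, and no tested gene of the molybdenum (5), glycine (6) and chloride (6) lists passed.

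The treatment comparison rests on 1 library each, so ratios carry intervals for counting error only and no p-value. In inhibitory nuclei the injured over naive ratio of CPM was 1.15 for Glra1 (95% interval 1.09 to 1.22), 1.17 for Glra2 (1.05 to 1.30) and 1.13 for Glra3 (1.04 to 1.22). Gphn was at 1.10 (1.07 to 1.13), and Glrb at 1.01 (0.944 to 1.07). Glra1, Glra2, Glra3 and Gphn were each a little more counted in the injured library, while the interval of the beta subunit included 1. Glra4, with 9 UMIs in each library, had a ratio of 0.874 (0.307 to 2.48).

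A gene with at least 100 UMIs was called where the larger level exceeded the smaller by at least 25%. None of 5 members was called in inhibitory nuclei, where 2.79% of 12300 genes were called higher and 13.8% lower (16.5% in either direction). Another scaling (trimmed mean of M-values) moved the ratios of all genes up by 0.07 on the log2 scale and that split to 4.66% higher and 8.53% lower. Relative to the median of all genes, -0.08 on the log2 scale, the members lay at the 94th percentile for Glra2, the 93rd for Glra1, the 91st for Glra3, the 89th for Gphn and the 69th for Glrb.

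In excitatory nuclei the ratio was 1.41 for Glra3 (1.19 to 1.68) and 1.28 for Glra1 (1.11 to 1.49), both past the 25% limit and the only called members of 5, where 3.89% of 8252 genes were called higher and 14.4% lower (18.3% in either direction). With the trimmed mean of M-values that split was 6.48% and 9.73%. Gphn was at 1.18 (1.12 to 1.23), Glra2 at 1.01 (0.892 to 1.15) and Glrb at 0.953 (0.851 to 1.07). Glra4, with 7 injured and 1 naive UMI, had a ratio of 5.28 whose interval ran from 0.678 to 238. With each cluster given the same weight in both libraries, Glra1, at 0.22 on the log2 scale, was no longer past the limit and Glra3, at 0.33, still was. Glra1 was likewise short of it when classes came from clustering (0.25) and in nuclei with Y-linked and no Xist UMIs (0.24). The UMIs behind Glra3 were 384 in injured and 205 in naive nuclei, and those behind Glra1 were 513 in injured and 301 in naive nuclei.

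**Figure D4:**
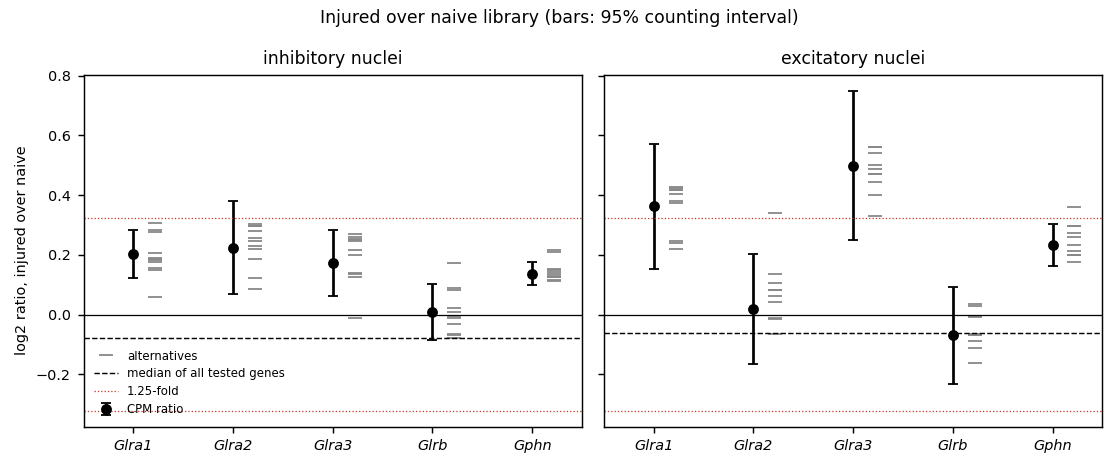
Log2 ratio of CPM, injured over naive library (vertical axis), of 5 members in inhibitory and excitatory nuclei as black circles with 95% counting intervals, grey dashes for the alternatives with at least 100 UMIs, a dashed line at the median of all tested genes and dotted lines where one library exceeds the other by 25%. Glra3 and Glra1 in excitatory nuclei, at 1.41 and 1.28, lie past the upper dotted line, and Glrb lies near 0 in both classes.

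By cluster, Glra3 was above its naive level beyond counting error in 3 of the 7 clusters on the Slc17a6 side. These were cluster 0, led by Chst9, with 72.1 CPM in injured and 47.0 CPM in naive nuclei, cluster 10 with 77.1 CPM in injured and 52.5 CPM in naive nuclei, and cluster 20, led by Moxd1 and Cped1, with 104 CPM in injured and 72.2 CPM in naive nuclei. In cluster 16, where Glra3 peaked, the ratio was within counting error. Of the 7 clusters, 4 were higher and 3 were lower in the injured library, the lower ones (0.859 in cluster 21, 0.963 in cluster 19 and 0.968 in cluster 15) within counting error. Gphn was higher in the injured library in all 19 neuron clusters, with an interval above 1 in 3 of 7 on the Slc17a6 side and 7 of 12 on the inhibitory side. Glra1 was higher in 6 of 7 and 10 of 12 clusters, with intervals above 1 in 2 and 3 of them. Glrb had an interval below 1 in cluster 1, with 103 CPM in injured and 166 CPM in naive nuclei, and above 1 in cluster 11, led by Tac2 and Adamts9, with 151 CPM in injured and 113 CPM in naive nuclei.

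Depth and gene length moved with this comparison. The median depth of inhibitory nuclei was 8616 UMIs in injured and 7195.5 in naive ones, and when genes were cut into 4 equal groups by span, the group with the longest spans had a median log2 ratio of 0.04, against -0.22 in the shortest group. In excitatory nuclei these medians were 0.04 and -0.18. In the longest group, 6.34% of genes in inhibitory nuclei and 6.93% in excitatory nuclei were called higher. In the shortest group, 33.0% of genes in inhibitory nuclei and 29.5% in excitatory nuclei were called lower. Glra2, Glra3 and Gphn belonged to the longest group in both classes, Glra1 (94.0 kb) only in inhibitory nuclei, and Glrb (70.1 kb) to the next longest group in both. Their part in the members' ratios was not tested.

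The related lists showed the following in the same comparison. None of 11 tested GABA-A subunits was called in inhibitory nuclei, with a median log2 ratio of 0.13, where Gabra3 was at 1.23 (1.16 to 1.32) and Gabrb1 at 1.23 (1.18 to 1.28). In excitatory nuclei 1 of 11 was higher, Gabra4 at 1.28 (1.02 to 1.61), with a median of 0.12. Scaffold genes had none higher and 3 of 10 lower in inhibitory nuclei (median -0.10), Nlgn3 at 0.764 among them, and none higher and 1 of 10 lower in excitatory nuclei (median -0.03). Transport partners had none higher and 5 of 20 lower in inhibitory nuclei (median -0.11), where 13.8% of all genes were lower, and 1 higher and 3 of 17 lower in excitatory nuclei (median -0.08). The dynein light chains that bind gephyrin were among the lower ones, with Dynll2 at 33.4 CPM in injured and 59.3 CPM in naive inhibitory nuclei (0.563, 0.502 to 0.631) and Dynll1 at 36.8 CPM in injured and 57.7 CPM in naive inhibitory nuclei (0.638, 0.570 to 0.713). In excitatory nuclei Dynll1 was at 0.618 and Dynll2 at 0.769, while Grip1 was at 1.29 (1.22 to 1.37). The splicing regulators had Nova1 higher at 1.32 (1.24 to 1.41) and none of 6 lower in inhibitory nuclei, and none higher and Nova2 lower at 0.768 in excitatory nuclei, with an interval (0.520 to 1.13) that included 1. The molybdenum cofactor list had 1 of 3 lower (Mocs3, 0.764, with an interval of 0.536 to 1.09 that included 1) in inhibitory nuclei and its single tested gene lower (Mocs2, 0.625, 0.433 to 0.898) in excitatory nuclei, and the glycine list had 2 of 4 lower in inhibitory nuclei, Gcsh at 0.659 and Amt at 0.749. The prostaglandin E2 route had 1 of 9 lower (Akap5, 0.778) in inhibitory and none of 8 called in excitatory nuclei. No chloride gene was called in either class, of 6 tested in inhibitory and 3 in excitatory nuclei, with the potassium chloride exporter Slc12a5 at 0.813 (0.769 to 0.859) in inhibitory nuclei.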

How the data were processed

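The deposited raw counts are UMIs per gene and nucleus of 2 single-nucleus libraries (10x 3' chemistry), made by the authors with Cell Ranger 3.0.2 and Seurat on mm10, per the submitters' processing notes. On intronic reads, strand and annotation nothing is given in the sources used here. Per the file values, the authors' deposited normalized values are on a natural log scale, ln(1 + 10000 × count / total of the nucleus), and the counts reproduced them, so only counts were tested. Every gene in the matrix had counts in at least 4 nuclei, and every nucleus had at least 514 genes.

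The members and lists were chosen with earlier results of these data known. Counts were summed per library and nucleus class and tested with edgeR 4.0.16 (R 4.3.3, quasi-likelihood test, trimmed mean of M-values, filterByExpr, library as a block, Benjamini-Hochberg adjustment over all tested genes, threshold 0.05). The compared classes were summed within each library, hence the block. Log2 fold changes are the first-named class over the second. The test of whether the Pdyn contrast differed between classes was chosen after seeing the data and used 8 sums. Injured over naive ratios have exact conditional binomial 95% intervals that cover counting error only, and a gene with at least 100 UMIs was called where the larger level exceeded the smaller by at least 25%. Levels are UMIs scaled to 1000000 per class (CPM), with exact Poisson intervals, and shares are also given after thinning each nucleus to 3000 UMIs. Nuclei were clustered with scanpy 1.11.5 and the Leiden method of igraph 0.11.9 (2000 variable genes, 30 components, 15 neighbours, resolution 1.0). The variable genes left out 212 genes, the members and lists among them, and clusters were named by marker genes. No doublets were removed. An alternative left out nuclei that had Xist as well as Y-linked UMIs, and the 10% of nuclei with the most UMIs. All members are named, and from each list up to 4 genes, the highest and lowest with at least 100 UMIs; Gm12236 and the lineage markers Pax2 and Tlx3 were added, and clusters were picked by their member levels. Genes of the gate were left out of the lists, and some genes are not reported here by name.

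Sequences came from GENCODE M21 transcripts, with the longest open reading frame as the coding sequence. Counts were simulated with 200 changed genes, some changed 3-fold and the others 1.5-fold. Of the 3-fold changes, 99% were recovered in the inhibitory over excitatory comparison (14741 genes) and 100% for Slc6a5 (13409 genes). For Pdyn, 97% were recovered in inhibitory (14118 genes) and 95% in excitatory nuclei (10733 genes). Of the 1.5-fold changes, 65%, 72%, 52% and 37% were recovered in that order. The simulated libraries differed in depth only and all genes shared a common spread, so these rates do not cover treatment or library differences. Alternatives covered DESeq2 1.42.0, its size factors, no filter, no block, a stricter gate, thinning, doublets, clusters with glial markers and classes by clustering.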

Additional observations from a re-analysis of the deposited data

Results flagged for a closer look

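The difference between Pdyn-positive and Pdyn-negative nuclei was not the same in the 2 neuron classes for Glra1 and Glra2, by a test of the difference itself (edgeR quasi-likelihood test over 8 class sums, 12939 genes tested, 4.11% of them called). For Glra1 the log2 fold change in inhibitory nuclei exceeded that in excitatory nuclei by 0.84 (SE 0.17, edgeR adjusted p = 0.000117). Its Pdyn-positive level was 166 CPM in injured and 153 CPM in naive inhibitory nuclei, against 201 CPM in injured and 173 CPM in naive Pdyn-negative ones, and 73.8 CPM in injured and 53.8 CPM in naive excitatory nuclei, against 147 CPM in injured and 121 CPM in naive Pdyn-negative ones. For Glra2 the log2 fold change in inhibitory nuclei differed from that in excitatory nuclei by -0.96 (SE 0.17, edgeR adjusted p = 6.6e-06). Glra2 was lower in Pdyn-positive inhibitory nuclei (-0.49) and higher in Pdyn-positive excitatory nuclei (0.46), in both libraries. The stricter gate ended both calls, with 0.998 for Glra1 (edgeR adjusted p = 0.097) and -0.37 for Glra2 (edgeR adjusted p = 0.82), and it left the excitatory value of Glra2 at 0.078. Without likely doublets both passed, at 1.24 and -0.78. Glra1 did not pass with DESeq2 (0.85, adjusted p = 0.054) or without the library block (0.85, edgeR adjusted p = 0.17), where Glra2 did (DESeq2 adjusted p = 0.037, edgeR adjusted p = 0.038). The same test gave 0.18 for Glra3, -0.14 for Glrb and 0.00 for Gphn, with edgeR adjusted p of 0.81, 0.79 and 0.999.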

How the results depend on the processing

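The members had 206 alternative values in the class comparisons. Of the 125 for called differences, 87 kept direction and call, and the others follow as log2 fold changes. Of the 81 for differences that were not called, none became called and 11 turned sign, the furthest being Glra3 for Slc6a5 when thinned (0.59, edgeR adjusted p = 0.29). For inhibitory over excitatory nuclei, thinning to 3000 UMIs and gating again left 34 injured and 26 naive excitatory nuclei and ended the calls of Glra1 (0.41), Glra3 (0.55), Glrb (-0.43) and Gphn (-0.22), with fewer nuclei as the construction. Glra3 lost its call with DESeq2 (0.23), without the library block (0.20) and without likely doublets (0.13), turned to -0.058 by clustering and ranged from 0.074 to 0.41 when each library was left out. Gphn lost its call without the library block (-0.27). For Slc6a5, Glra2 lost its call with DESeq2 (0.42), without the block (0.45) and thinned (0.90), and Glrb with DESeq2 (0.36), thinned (0.31) and under the stricter gate (0.21). For Pdyn in inhibitory nuclei, Glra1 lost its call with DESeq2 size factors (-0.18), DESeq2 (-0.18), no block (-0.20), the stricter gate (-0.092), no doublets (-0.20) and no glial-marker clusters (-0.19, added after seeing the data), and turned to 0.36 when thinned. Glra2 lost it with DESeq2 (-0.47), no block (-0.49), thinned (-0.65) and the stricter gate (-0.29), and Glrb with size factors (-0.21), DESeq2 (-0.21), no block (-0.23), thinned (-0.91), the stricter gate (-0.24) and no doublets (-0.13). For Pdyn in excitatory nuclei, Glra1 lost its call with DESeq2 (-1.05), and Glra2 with DESeq2 (0.47), no block (0.46), the stricter gate (0.078) and no doublets (0.23), and thinning gave values for Gphn alone. Glra3 ranged over the libraries from -0.28 to 0.23 for Slc6a5 and from -0.70 to 0.43 for Pdyn in excitatory nuclei. Glra2 ranged from 0.25 to 0.59 for Slc6a5 and from 0.29 to 0.65 for Pdyn in excitatory nuclei. For the difference of the Pdyn contrasts, with alternatives added after seeing the data, Glra1 lost its call under the stricter gate (0.998), without the library block (0.85) and with DESeq2 (0.85) and ranged from 0.73 to 1.002 over the libraries, and Glra2 lost it under the stricter gate (-0.37) and ranged from -1.10 to -0.80. The causes were not tested.

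With DESeq2 the genes called higher and lower were 669 and 812 (edgeR 1830 and 2142) for inhibitory over excitatory nuclei, 408 and 289 (edgeR 1551 and 1235) for Slc6a5, 224 and 249 (edgeR 888 and 1108) for Pdyn in inhibitory and 5 and 11 (edgeR 159 and 189) in excitatory nuclei. Without the library block they were 1113 and 1335, 907 and 598, 263 and 426, and 39 and 58 in the same order. Thinned they were 250 and 239, 202 and 132, 97 and 103, and 1 and 1, and under the stricter gate 972 and 1065, 747 and 631, 533 and 569, and 22 and 29. Without likely doublets the last comparison had 52 and 78.

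No paired analysis was possible for injured over naive because each treatment had 1 library. Of 128 alternative log2 ratios, 116 moved by less than their interval. In inhibitory nuclei Gphn moved to 0.21 with the trimmed mean of M-values and 0.22 with size factors, Glra1 to 0.060 thinned and 0.31 under the stricter gate, Glra3 to -0.011 under the stricter gate, and Glrb to 0.17 in nuclei with Y-linked UMIs alone. In excitatory nuclei thinning, with 15 to 174 UMIs per gene, gave 0.61 for Glra1, -0.39 for Glra2, 1.61 for Glra3, -0.63 for Glrb and 0.36 for Gphn, and the stricter gate gave 0.34 for Glra2. The share of genes higher by at least 25% ranged from 1.48% to 5.88% in inhibitory and from 1.99% to 26.9% in excitatory nuclei. In the naive library alone, the Glra1 level of cluster 16 was 281 CPM, under the 291 CPM of cluster 6. Depth limits Glra4, and rarely counted alpha subunits in single nuclei.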

Other observations

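Nuclei that the transmitter genes put in neither class had levels of the members between those of the classes or close to them. In the 99 injured and 126 naive nuclei with both kinds of transmitter gene, Glra1 was at 156 CPM in injured and 136 CPM in naive nuclei. Glra2 was at 91.6 CPM in injured and 114 CPM in naive ones, and Gphn at 962 CPM in injured and 861 CPM in naive ones. In the 1584 injured and 2001 naive nuclei with too few transmitter UMIs, Glra1 was at 151 CPM in injured and 137 CPM in naive nuclei, Glra2 at 82.7 CPM in injured and 75.9 CPM in naive ones and Glra3 at 89.2 CPM in injured and 75.5 CPM in naive ones. Glrb was at 148 CPM in injured and 141 CPM in naive nuclei of that kind. Glra4 had 15 UMIs in injured ones, at 1.18 CPM against 1.78 CPM in injured excitatory nuclei, and 22 UMIs in naive ones, at 1.65 CPM. Its intervals of 0.660 to 1.94 CPM and 1.03 to 2.497 CPM in the injured and naive library overlapped those of both neuron classes.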
